A study of Homo sapiens with 6 samples.

Results

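The genes described here are 10 members of the S100 family of calcium-binding proteins, S100A1, S100A2, S100A4, S100A6, S100A10, S100A11, S100A13, S100A14, S100A16 and S100P. They were taken by symbol from the 57905 genes of the RNA-seq count matrix, and 9 of the 10 passed the low-count filter, as did 16565 genes in all. The RNA came from HCT116, a line of human colorectal carcinoma cells with wild-type p53. Cells of the Nut 0h group received the vehicle DMSO, whereas cells of the Nut 1h and Nut 10h groups received 10 µM Nutlin-3a, a compound that blocks the binding of MDM2 to p53, for 1 h and 10 h. All groups are the same unedited line, with 2 biological replicates per group and 6 libraries in all. The comparisons ask how the transcripts of the family changed early and late after p53 activation.

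S100 proteins are small calcium sensors of the EF-hand type that work mostly as dimers. Calcium binding opens a hydrophobic surface through which they hold partners such as annexins, cytoskeletal proteins and p53 itself, and some members are also released from cells and act on receptors such as the one encoded by AGER. Most human S100 genes lie together on the long arm of chromosome 1 in the band 1q21, and epithelial tumours often express several of them at altered levels.

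Of the 10 members, 9 lie on chromosome 1 and S100P lies alone on chromosome 4, at chr4:6695605-6698897 of GRCh37. In the same build S100A6 lies at chr1:153507075-153508720, S100A4 at chr1:153516089-153522612, S100A2 at chr1:153533584-153540366, S100A16 at chr1:153579362-153585621, S100A14 at chr1:153586731-153589462, S100A13 at chr1:153591263-153603836 and S100A1 at chr1:153600402-153604515. S100A10, at chr1:151955391-151966335, and S100A11, at chr1:152004982-152020383, form a separate pair on the near side of the band. S100A1 and S100P are read from the plus strand and the other members from the minus strand. S100A1 and S100A13 share 235 exonic bases on opposite strands, which is 7.76% of the exonic bases of S100A1 and 10.6% of those of S100A13, and 24.2% of the exonic bases of S100A13 also belong to a long non-coding RNA gene on its own strand. S100A1 also shares 320 exonic bases (10.6%) with one long non-coding RNA gene on the opposite strand and 34 (1.12%) with another. As the strand setting of the counting is not given in the sources used here, the values of S100A1 and S100A13 are uncertain.

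Several sequences matter for a family that is read in cells with active p53. The first is the p53 motif at a distal site that the study paired with S100A1 and cut out with guide pairs in separate clones, which were not analysed here. The cuts of the outer guide pair fall at chr1:153498486 and chr1:153499208 of GRCh37, beyond the 3′ end of S100A6, and the bases between them hold 1 match to the p53 consensus, with 1 mismatch, at chr1:153498788-153498807. The plus strand is printed from chr1:153498778 to 153498817, with the 20 bases of the match in capitals.
p53 motif of the distal site: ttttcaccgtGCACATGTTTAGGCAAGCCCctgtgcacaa

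The second set comes from the promoters, taken as 250 bases before and 50 bases after each gene start in RefSeq sequences of GRCh38.p14. All 10 members matched, with 14 promoters. A match to the p53 consensus with at most 2 mismatches was found in 1 of the 14, that of S100A6, and in 100 of 35116 promoters in the table (0.285%). It holds 2 mismatches and lies at chr1:153536038-153536057 of GRCh38.p14, with 46 bases between its end and the gene start. A p53 half-site occurred in 1 of the 14, a promoter of S100A16, against 6.63% of all promoters. The letters TATAAA occurred in 3 of the 14 (S100A4, S100P and 1 promoter of S100A13) against 11.5%, GGGCGG in 5 of the 14 (S100A6, S100A10, S100A11 and 1 promoter each of S100A13 and S100A16) against 45%, and TGANTCA in 1 promoter of S100A2 against 7.71%. Both strands were searched. A match is a description of the letters and not evidence of binding. The 250 bases before the start are printed for S100A6, the member with the highest level, and for the promoter of S100A2, the member that changed most at Nut 10h, that holds TGANTCA. Both are printed on the minus strand, as the genes are read, from chr1:153535992-153536241 and chr1:153565845-153566094 of GRCh38.p14. The capitals mark 3 copies of GGGCGG, of which the second and the third overlap, and then the p53 match in S100A6, and the letters TGANTCA in S100A2.
S100A6 promoter: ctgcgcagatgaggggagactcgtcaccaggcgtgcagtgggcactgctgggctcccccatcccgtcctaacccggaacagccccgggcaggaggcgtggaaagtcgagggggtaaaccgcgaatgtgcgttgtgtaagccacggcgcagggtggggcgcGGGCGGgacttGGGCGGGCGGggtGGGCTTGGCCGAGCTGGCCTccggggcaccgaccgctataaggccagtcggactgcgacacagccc
S100A2 promoter: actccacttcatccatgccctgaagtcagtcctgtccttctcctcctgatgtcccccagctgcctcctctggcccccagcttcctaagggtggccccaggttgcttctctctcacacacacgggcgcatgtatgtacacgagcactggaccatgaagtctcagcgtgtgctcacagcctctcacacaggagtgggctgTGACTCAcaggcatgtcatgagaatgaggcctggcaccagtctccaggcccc

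The libraries held between 26068076 and 35473485 counts assigned to genes, the shallowest being Nut 1h replicate 2. Mitochondrial transcripts took between 4.99% and 8.44% of them, most at Nut 1h. MDM2, a p53 target, rose by 2.19 after 1 h (1.49 with the offset for GC content described next) and by 3.75 after 10 h on the log2 scale, and CDKN1A, which was called after 1 h only with the offset (0.70, adjusted p = 2.74e-06, against 0.05, adjusted p = 0.704, without it), by 3.84 after 10 h. All 7 epithelial markers were detected in every library, and their summed normalized counts ran from 176166 to 206661 in vehicle, from 119679 to 129835 after 1 h and from 222766 to 265745 after 10 h. Markers of blood, endothelial, fibroblast, liver and melanocyte cells summed to between 875 and 1951 normalized counts, most of it COL1A1 and ACTA2, and PTPRC and CD3E, which mark leukocytes and T cells, did not exceed 2 counts in a library. LYZ, a myeloid marker, reached 78 counts in 1 library and gave means of 47.5 normalized counts in vehicle, 1.505 after 1 h and 1.92 after 10 h, and was called lower at both time points. Across genes, the log2 fold change followed the GC content of the transcripts at Nut 1h (Pearson r = -0.69 over 16137 genes, which are not independent replicates) and not at Nut 10h (r = -0.03). The members hold between 47.5% (S100A10) and 60.2% (S100A6) GC, against a median of 48.7% over the tested genes, and results are therefore also given from a fit with an offset for GC content. The 2 libraries of a group are separate biological replicates per the labels. The p-values measure only the spread within groups, pooled over all 6 libraries and with information shared across genes.

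The S100 genes covered a wide range of levels in unstimulated cells. Levels between genes are compared as CPM (counts scaled to a common library total) per kb of the longest annotated transcript. S100A6, also known as calcyclin, stood far above the others at Nut 0h, with 948 ± 85.6 CPM per kb (SD, n = 2). It was followed by S100A11 with 227 ± 11.0, S100A10 with 187 ± 2.42 and S100A16 with 184 ± 24.7, and the ranges of S100A10 and S100A16 overlapped. S100A14 reached 73.7 ± 6.53 and S100A4 62.6 ± 2.57. S100A13 (7.06 ± 0.67), S100A2 (5.27 ± 0.42) and S100A1 (0.417 ± 0.085) were much lower. With the median transcript length instead, S100A10 (241 ± 3.11) came before S100A11 (228 ± 11.0), and with the union of exons S100A16 (127 ± 17.0) came before S100A10 (124 ± 1.60), so the order among these 3 depends on the length chosen, whereas the other places at Nut 0h did not change. S100P, first found in placenta, was close to undetected, with 3 and 5 counts in vehicle, 4 and 2 after 1 h, and 1 and 4 after 10 h of Nutlin-3a. Its counts per group were 8 (95% Poisson interval 3.45 to 15.8, counting error only), 6 (2.20 to 13.1) and 5 (1.62 to 11.7), and no difference was detectable at this depth.

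**Figure D1:**
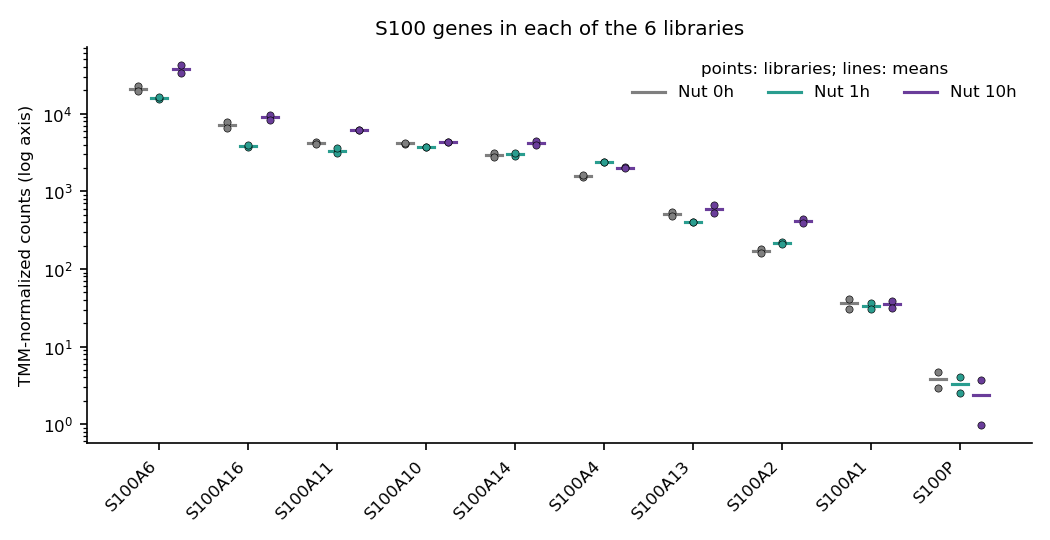
TMM-normalized counts (log axis) of the 10 S100 genes in each library, with points for libraries and lines for group means (n = 2). S100A6 lies highest and S100P lowest in all groups, and S100A2 at Nut 10h (395 and 442) lies above its 4 other libraries.

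After 10 h of Nutlin-3a, the S100 genes that passed the test had all risen. Of the 9 tested members, 6 rose (S100A2, S100A4, S100A6, S100A11, S100A14 and S100A16), whereas 14.1% of all tested genes were called higher. None of the 9 was called lower, against 14.9% of all tested genes, and none was lower at an unadjusted p under 0.05 in edgeR or at an adjusted p of at most 0.05 in DESeq2. The median log2 fold change of the 9 was 0.37, beside 0.00 over all tested genes. After 1 h the picture was mixed, with 2 of 9 higher (S100A2 and S100A4), where 34.5% of all tested genes were called higher, and 4 of 9 lower (S100A6, S100A11, S100A13 and S100A16), where 32.3% were called lower, so that both shares were near the background. The median of the 9 was -0.16 at Nut 1h, beside 0.05 over all tested genes. Both comparisons use the same Nut 0h libraries.

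**Figure D2:**
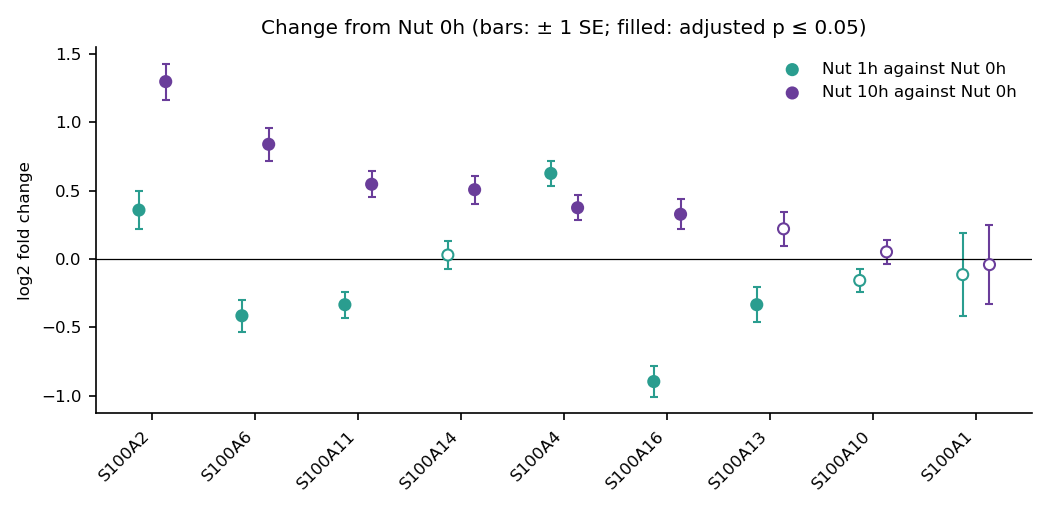
log2 fold changes of the 9 tested S100 genes at Nut 1h and Nut 10h against Nut 0h, with bars of 1 SE and filled points for an adjusted p of at most 0.05 (edgeR's quasi-likelihood test). S100A2 reaches 1.30 at Nut 10h, and S100A16 falls lowest at Nut 1h, at -0.90.

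S100A2 encodes a mostly nuclear S100 protein that binds p53. Its normalized counts were 180 and 161 in vehicle, 224 and 211 after 1 h, and 442 and 395 after 10 h of Nutlin-3a. The groups did not overlap, and the level was highest in both Nut 10h libraries. This amounted to a log2 fold change of 1.30 ± 0.13 (SE) at Nut 10h (2.46-fold, edgeR adjusted p = 4.32e-06). Without an offset for GC content, S100A2 was the only member past a log2 fold change of 1 against Nut 0h. With the offset S100A4 also passed it, at Nut 1h (1.06). The change at Nut 1h was 0.36 ± 0.14 (adjusted p = 0.0362), and that call was lost under DESeq2 (0.31, adjusted p = 0.261) and without any single one of Nut 0h replicate 2, Nut 1h replicate 1 or Nut 1h replicate 2 (adjusted p = 0.186, 0.170 and 0.0823). It was also lost with RLE size factors, no filter, at least 10 counts in every library or only the 4 libraries compared (adjusted p from 0.0523 to 0.110), so that 9 of 17 alternatives kept it.

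S100A6 binds the ubiquitin ligase adaptor encoded by CACYBP and several annexins. It gave 22432 and 19741 normalized counts in vehicle, 15244 and 16363 after 1 h, and 42341 and 33067 after 10 h of Nutlin-3a. All Nut 10h values lay above and all Nut 1h values below those of Nut 0h. The gene rose by a log2 fold change of 0.84 ± 0.12 at Nut 10h (1.79-fold, adjusted p = 0.000114). The fall at Nut 1h (-0.42 ± 0.12, adjusted p = 0.00675) was replaced by a rise of 0.42 (adjusted p = 0.000483) with the GC-content offset, and it was lost without Nut 1h replicate 1 (adjusted p = 0.0821). At Nut 10h the offset left the rise of S100A6 in place. The short stretch of 37 exonic bases that S100A6 shares with an antisense non-coding gene is 3.81% of its exonic bases.

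S100A11, a partner of the annexin encoded by ANXA1, followed a similar course at lower levels. Its normalized counts were 4364 and 4076 in vehicle, 3125 and 3567 after 1 h, and 6074 and 6246 after 10 h of Nutlin-3a. No library of one group reached into the range of another. The rise at Nut 10h was 0.55 ± 0.10 (adjusted p = 0.00069), and the fall at Nut 1h was -0.34 ± 0.10 (adjusted p = 0.007). The latter was lost with the GC-content offset (-0.08, adjusted p = 0.425), and without Nut 0h replicate 1 or Nut 1h replicate 1 (adjusted p = 0.0608 and 0.147).

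S100A10 differs from its relatives in that it does not bind calcium, and it forms a complex with the product of ANXA2 at the plasma membrane. It was the steadiest of the abundant members. It gave 4107 and 4183 normalized counts in vehicle, 3680 and 3750 after 1 h, and 4334 and 4255 after 10 h of Nutlin-3a. The Nut 1h values were the lowest, and the shift from Nut 0h was -0.16 ± 0.09 at Nut 1h (adjusted p = 0.123) and 0.05 ± 0.09 at Nut 10h (adjusted p = 0.702). The difference between the treated groups was 0.21 ± 0.09 (adjusted p = 0.0457), which the replicate block did not keep (adjusted p = 0.0637). S100A10 has the lowest GC content of the members, and with the offset it was called lower at Nut 1h (-0.36, adjusted p = 0.000319).

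S100A14 and S100A16 are neighbouring genes of epithelial cells. S100A14 gave 3151 and 2780 normalized counts in vehicle, 2888 and 3161 after 1 h, and 4490 and 3934 after 10 h of Nutlin-3a. The Nut 0h and Nut 1h values overlapped, whereas both Nut 10h values lay above them, and the gene rose by 0.51 ± 0.10 on the log2 scale (adjusted p = 0.00209). S100A16 gave 7799 and 6449 normalized counts in vehicle, 3688 and 3962 after 1 h, and 9542 and 8323 after 10 h of Nutlin-3a. Without the GC-content offset, S100A16 showed the lowest log2 fold change of any member at Nut 1h, where it fell by 0.90 (SE 0.11, adjusted p = 8.14e-06). With the offset it was still called lower (-0.25, adjusted p = 0.0167), whereas S100A10 was then lowest (-0.36). The rise of S100A16 at Nut 10h was small (0.33 ± 0.11, adjusted p = 0.0378). That call was lost without any single library of Nut 1h, or without Nut 0h replicate 2 or Nut 10h replicate 1 (adjusted p from 0.087 to 0.331), and also with RLE size factors (0.0583) or only the 4 libraries compared (0.0667), which makes 6 of 17 alternatives.

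S100A4, which binds the non-muscle myosin heavy chain encoded by MYH9 and is known from studies of metastasis, was the member that rose most at Nut 1h. Its normalized counts were 1517 and 1608 in vehicle, 2416 and 2404 after 1 h, and 2070 and 1980 after 10 h of Nutlin-3a. Both treated groups lay above Nut 0h, with the Nut 1h libraries highest. The log2 change amounted to 0.63 ± 0.09 at Nut 1h (adjusted p = 3.4e-05) and 0.37 ± 0.09 at Nut 10h (adjusted p = 0.00675). The rise at Nut 1h was called in all 17 alternatives, from 0.58 to 1.06, and the rise at Nut 10h was lost only without Nut 0h replicate 1 (adjusted p = 0.0783).

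S100A13, which takes part in the release of proteins that lack a signal peptide, gave 543 and 475 normalized counts in vehicle, 405 and 401 after 1 h, and 658 and 528 after 10 h of Nutlin-3a. The Nut 0h and Nut 10h ranges overlapped (0.22 ± 0.13, adjusted p = 0.211), whereas both Nut 1h libraries were lower than both Nut 0h libraries (-0.34 ± 0.13, adjusted p = 0.0341). The fall was lost with DESeq2 (adjusted p = 0.0658), and with the GC-content offset the value was 0.09 (adjusted p = 0.534). It was also lost without Nut 0h replicate 1 or without any single Nut 1h library (adjusted p from 0.132 to 0.181), with total counts only (0.0665) and with upper quartile scaling (0.0514), so that 9 of 17 alternatives kept the call.

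S100A1, best known from heart and skeletal muscle, is the gene that the distal site was paired with. The study measured its nascent RNA by qRT-PCR, and reports that the response to p53 activation was gone in clones without the motif. It also states that mRNA levels show the p53-driven effects on transcription only in part. The RNA-seq counts used here are another measure than nascent RNA. S100A1 gave 30.9 and 41.3 normalized counts in vehicle, 36.1 and 30.2 after 1 h, and 38.7 and 31.6 after 10 h of Nutlin-3a. The 3 groups overlapped throughout, with log2 fold changes of -0.12 ± 0.30 at Nut 1h (adjusted p = 0.750) and -0.04 ± 0.29 at Nut 10h (adjusted p = 0.934). At about 35 counts per library, the error is wide, and changes of the size seen for S100A4 were not resolved. With the GC-content offset the value at Nut 1h was 0.59, which was not called (adjusted p = 0.126).

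The offset for GC content changed the calls at Nut 1h and not those at Nut 10h. At Nut 1h, 4 of 9 members were then higher (S100A2, S100A4, S100A6 and S100A14), where 20.1% of all tested genes were called higher, and 2 of 9 were lower (S100A10 and S100A16), where 25.4% were called lower. The values with the offset were 0.66 for S100A2, 1.06 for S100A4 and 0.34 for S100A14. At Nut 10h the same 6 members were higher with the offset, where 16.8% of all tested genes were called higher, and none was lower, where 22.6% were called lower. The part of GC content in the Nut 1h values was not tested beyond this offset.

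**Figure D3:**
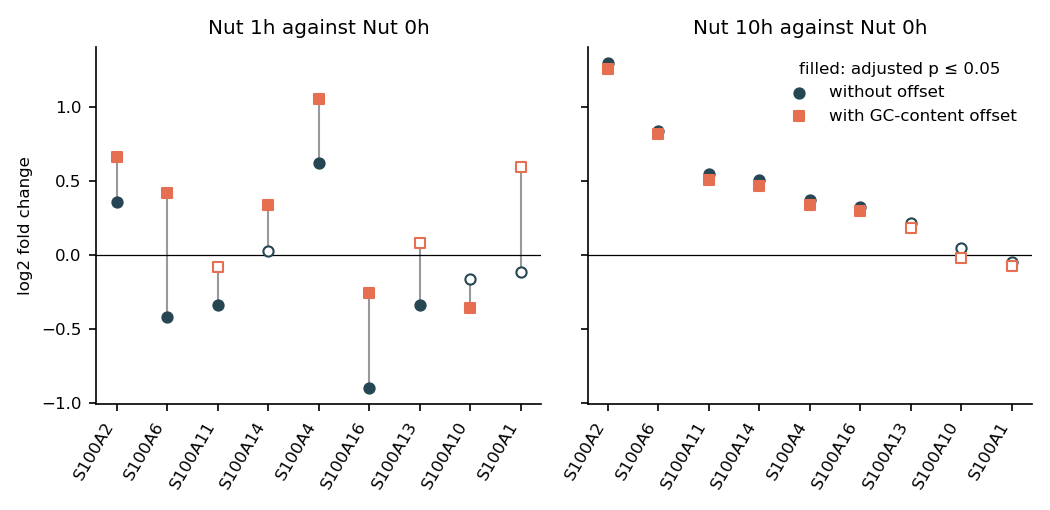
log2 fold changes of the 9 tested S100 genes against Nut 0h without (circles) and with (squares) an offset for GC content, filled for an adjusted p of at most 0.05. At Nut 1h S100A6 moves from -0.42 to 0.42 and S100A16 from -0.90 to -0.25, whereas at Nut 10h the pairs nearly coincide.

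A direct comparison of the treated groups gave larger differences for several genes. Between Nut 10h and Nut 1h, 7 of 9 members were higher at Nut 10h, where 34.2% of all tested genes were called higher, and 1, S100A4, was lower, where 33.7% were called lower. The median of the 9 was 0.55, beside -0.02 over all tested genes. S100A6 (1.25 ± 0.12, adjusted p = 6.1e-07) and S100A16 (1.22 ± 0.11, adjusted p = 3.82e-07) differed by more than 1 on the log2 scale. S100A2 followed with 0.94 ± 0.13 and S100A11 with 0.88 ± 0.10. For S100A4 the difference was -0.25 ± 0.09 (adjusted p = 0.0236), and it was lost without any single one of the 4 libraries compared (adjusted p from 0.079 to 0.221). With the GC-content offset the values were 0.40 for S100A6, 0.55 for S100A16, 0.60 for S100A2, 0.58 for S100A11 and -0.72 for S100A4, all still called. S100A13 and S100A14, with 0.55 and 0.48, were no longer called with the GC-content offset (0.10 and 0.13).

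The summed counts of the 10 genes made up 0.129% and 0.120% of the assigned counts in vehicle, 0.0996% and 0.103% after 1 h, and 0.207% and 0.181% after 10 h of Nutlin-3a. On the per-length scale the sum was 1783 and 1608 CPM per kb in vehicle, 1297 and 1387 after 1 h, and 2891 and 2427 after 10 h of Nutlin-3a. S100A6 alone supplied 56.6% and 55.2% of that sum in vehicle, 52.9% and 53.1% after 1 h, and 65.9% and 61.3% after 10 h of Nutlin-3a. The share of S100A4 was 3.41% and 4.01% in vehicle, 7.47% and 6.95% after 1 h, and 2.87% and 3.27% after 10 h of Nutlin-3a, so that it was highest in the Nut 1h libraries. These sums and shares were not tested.

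**Figure D4:**
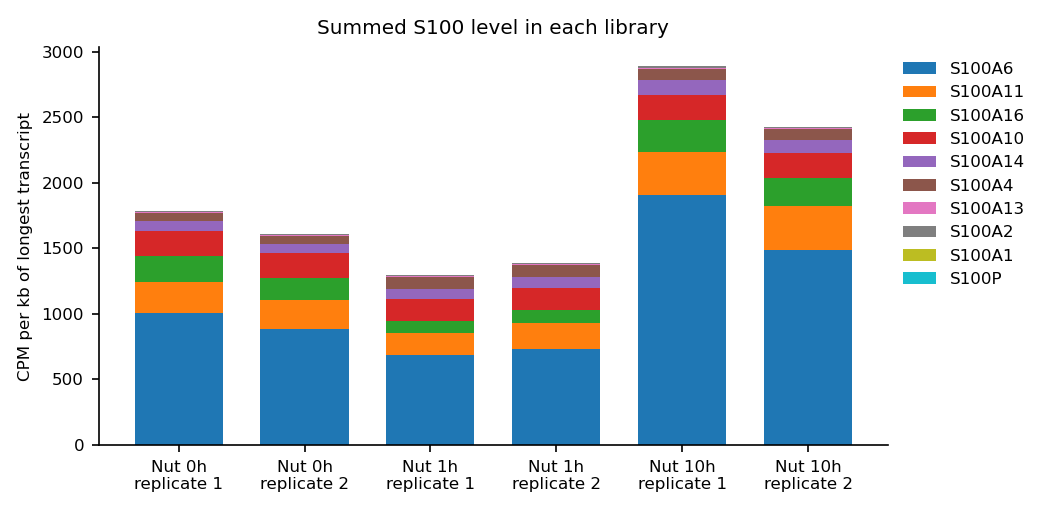
Summed level of the 10 S100 genes in each library, in CPM per kb of the longest transcript, split by gene. S100A6 fills more than any other gene in all 6 libraries, and the bars of Nut 10h (2891 and 2427) are the tallest.

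The members that rose at Nut 10h were found both close to the distal p53 motif and far from it. The start of S100A6 lies 9.9 kb from the motif, that of S100A4 23.8 kb and that of S100A2 41.6 kb, with log2 fold changes at Nut 10h of 0.84, 0.37 and 1.30. Further out, S100A16 (86.8 kb) and S100A14 (90.7 kb) were called higher, whereas S100A1 (101.6 kb) and S100A13 (105.0 kb) were not. On the other side, S100A11 lies 1478.4 kb away and was higher, and S100A10 lies 1532.5 kb away and was not called. Binding of p53 at the motif was not analysed here.

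**Figure D5:**
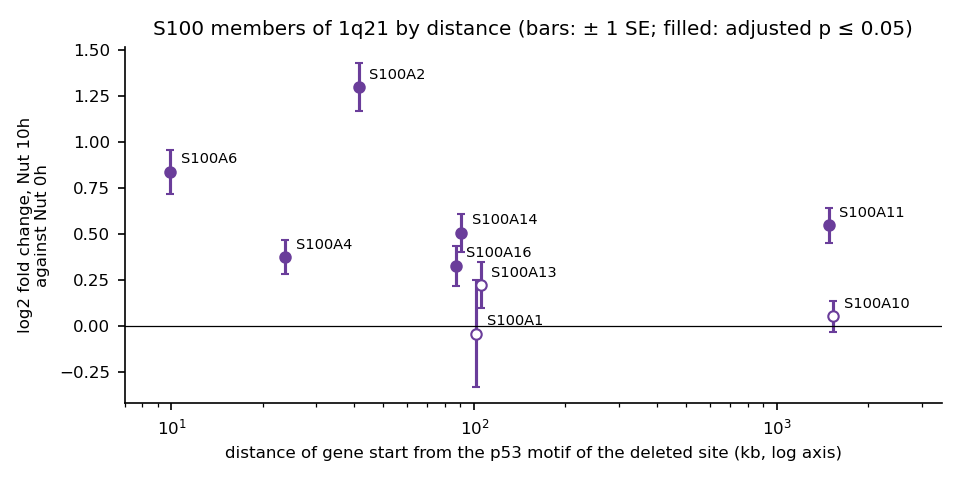
log2 fold change at Nut 10h against Nut 0h of the 9 S100 genes of 1q21 (bars, 1 SE; filled, adjusted p of at most 0.05) by the distance in kb (log axis) of the gene start from the distal p53 motif. S100A2, at 41.6 kb, has the largest value (1.30), and S100A11, at 1478.4 kb, reaches 0.55.

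The other S100 genes had few or no counts, except S100A3 and S100A5. Of 11 S100 genes outside the 10 members, S100A3 and S100A5 were tested, and both lie between S100A6 and S100A2. S100A3 gave means of 117, 83.9 and 129 normalized counts in the 3 groups and was not called against Nut 0h. S100A5, named after its values were seen, gave 40.1, 22.6 and 52.6 and was called lower at Nut 1h (-0.81, adjusted p = 0.0327), although not with the GC-content offset (-0.30, adjusted p = 0.467). Between Nut 10h and Nut 1h, S100A3 (0.63, adjusted p = 0.0184) and S100A5 (1.20, adjusted p = 0.00268) were both called higher, beside 34.2% of all tested genes. With the offset neither was called in that comparison (-0.09 and 0.66). The inflammatory members S100A8 and S100A9 had 0 counts at Nut 0h and Nut 1h, and 1 and 3 counts over both Nut 10h libraries. S100A7, S100A7A, S100A7L2, S100A12, S100B and S100G had 0 counts in every library. Of the 7 fused-type genes of the same band, which carry an S100 domain at the start of a long repeat protein, 2 were tested (FLG and HRNR, named after their values were seen). FLG was called at Nut 10h (1 of 2, beside 14.1% of all tested genes) and HRNR was not (adjusted p = 0.140). FLG had means of 3.33, 0.502 and 22.7 normalized counts in the 3 groups.

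The annexins are the best-known partners of the family. Of 10 tested annexins, 1 rose and none was called lower at Nut 10h, beside 14.1% and 14.9% of all tested genes, and with the GC-content offset 1 rose and 5 fell, beside 16.8% and 22.6%. The one that rose was ANXA4, whose mean went from 1373 to 2934 normalized counts (1.10, adjusted p = 4.74e-07). ANXA2, the partner of S100A10, named after its values were seen, gave means of 44418, 42738 and 46816 normalized counts and was not called at either time point, as was the case for S100A10 itself. With the GC-content offset both ANXA2 (-0.52, adjusted p = 9.68e-05) and S100A10 were called lower at Nut 1h. The median over the tested annexins at Nut 10h was -0.07. At Nut 1h, 4 annexins rose and 3 fell (beside 34.5% and 32.3% of all tested genes), whereas with the offset 1 rose and 6 fell (beside 20.1% and 25.4%). ANXA10 was higher (1.31, and 0.65 with the offset) and ANXA11 lower (-0.96, and -0.77 with the offset). ANXA1 went from 0.57 to -0.14 with the offset (adjusted p = 0.156) and ANXA3 from a rise of 0.46 to a fall, at -0.22 (adjusted p = 0.0146).

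Among 33 tested binding partners and receptors, 7 rose and 6 fell at Nut 10h, with a median of 0.01, beside 14.1% and 14.9% of all tested genes. PPFIBP1, whose product binds S100A4, rose by 0.88, and PLAU, which encodes the urokinase-type plasminogen activator, by 0.73. CACYBP, whose product binds S100A6, fell by 0.79 on the log2 scale, opposite to S100A6, from a mean of 4976 to 2878 normalized counts, and SPHK1 fell by 0.88. At Nut 1h, 13 rose and 13 fell (beside 34.5% and 32.3% of all tested genes), with CTSD (-1.61), SPHK1 (-1.47), STUB1 (-1.12) and RDX (0.96) the most changed by the rule used. With the GC-content offset, 8 rose and 9 fell at each time point (beside 20.1% and 25.4% of all tested genes after 1 h, and 16.8% and 22.6% after 10 h), CTSD stood at -0.43 at Nut 1h, and SPHK1, STUB1 and RDX were not called at Nut 1h (-0.15, 0.15 and 0.15).

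Of 25 other EF-hand calcium sensors tested, 1 rose and 7 fell at Nut 10h, with a median of -0.08, beside 14.1% and 14.9% of all tested genes. The offset gave 3 and 10, beside 16.8% and 22.6%. The gene that rose was CAPN1 (0.32, adjusted p = 0.0387), named after its values were seen. Among those that fell were CALML4 (-0.62), EFHD2 (-0.56) and PPP3R1 (-0.55), of which PPP3R1 encodes the regulatory subunit of calcineurin. At Nut 1h, 13 rose and 9 fell (34.5% and 32.3% of all tested genes), and with the offset 5 rose and 11 fell (20.1% and 25.4%). HPCAL1 (-1.81) and CETN3 (1.37) changed most there, and the offset gave smaller values of the same sign, -1.001 and 0.39, which were still called. CIB1 (-1.04) and CALM2 (1.03) stood at -0.73 and 0.17 with it, the latter not called (adjusted p = 0.0525).

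Of 23 tested genes that flank the S100 cluster or lie within it, 1 rose and 3 fell at Nut 10h, with a median of -0.07, beside 14.1% and 14.9% of all tested genes. The offset gave 1 and 7, beside 16.8% and 22.6%. SNX27, a sorting nexin, rose by 0.35, whereas ILF2 (-0.49), TPM3 (-0.38) and SLC39A1 (-0.29) fell. At Nut 1h, 4 rose and 12 fell, with a median of -0.23, beside 34.5% and 32.3% of all tested genes, and with the offset 4 rose and 7 fell, beside 20.1% and 25.4%. JTB (-0.94) and RPS27 (-0.92) fell and SNX27 (0.99) rose, and these calls were kept with the offset, whereas DENND4B fell (-0.78) and was not called with it (0.16, adjusted p = 0.0935).

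The 7 epithelial markers did not move as one group. KRT19 and CLDN4, which encode a keratin and a tight junction protein, fell at Nut 1h (-0.98 and -0.73) and rose at Nut 10h (0.87 and 0.70). Without the GC-content offset, S100A6 and S100A11 did so too. With the offset only the rises of KRT19 and CLDN4 at Nut 10h were called, whereas S100A6 was then called higher at Nut 1h as well. KRT8 (-0.71), KRT18 (-0.36) and CLDN7 (-0.72) also fell at Nut 1h, whereas CDH1 (0.51) and EPCAM (0.46) rose. With the offset, CDH1 alone of the 7 was called at Nut 1h (0.36). At Nut 10h EPCAM fell (-0.32), and CDH1, KRT8, KRT18 and CLDN7 were not called (from -0.04 to 0.16). Among the markers of other cell types, ACTA2 rose from a mean of 70.9 to 662 normalized counts at Nut 10h. The part of these genes in the S100 results was not tested. In bulk RNA, fewer cells that express a gene and less RNA per cell cannot be told apart.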

How the data were processed

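RNA-seq libraries of HCT116 cells were analysed, 2 biological replicates for each of Nut 0h, Nut 1h and Nut 10h. Per the submitters' processing notes and the study's methods, the authors trimmed reads with Trim Galore 0.6.6, aligned them to GRCh37 with STAR 2.7.0f and assigned them to genes with featureCounts. The deposited values are raw counts per gene. The authors' second deposited table holds DESeq2 fold changes and p-values, of which only gene symbols were used. No column was left unmatched to a sample. Strand setting and treatment of multimapping reads are not given in the sources used here.

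Counts were filtered with filterByExpr, scaled by TMM and tested with edgeR 4.0.16 (quasi-likelihood test, R 4.3.3, two-sided, all 6 libraries, condition as the only term, 3 residual degrees of freedom). P-values were adjusted by Benjamini-Hochberg over all 16565 tested genes, with a call at 0.05 or below. Normalized counts are counts scaled by the TMM library size to the mean library. DESeq2 1.42.0, other scalings, filters and designs, each replicate left out, and a loess offset for GC content (span 0.4) were alternatives. The script was tested on simulated data. Positions are from GENCODE v44 lifted to GRCh37, promoters from RefSeq. All 10 members were named, and of each further list up to 4 called genes per comparison with the largest change and a mean of at least 100 normalized counts. One such gene is not reported here. Members and lists were chosen with earlier results of these data known.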

Additional observations from a re-analysis of the deposited data

Results flagged for a closer look

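The response of 8 S100 genes differed between the time points, as tested directly by Nut 10h against Nut 1h with edgeR's quasi-likelihood test. Of the 9 tested members, 7 were higher and 1 was lower at Nut 10h, beside 34.2% and 33.7% of all tested genes. The log2 difference was positive for S100A2 (0.94), S100A6 (1.25), S100A10 (0.21), S100A11 (0.88), S100A13 (0.55), S100A14 (0.48) and S100A16 (1.22), and negative for S100A4 (-0.25). Both libraries of Nut 10h lay on the same side of both libraries of Nut 1h in each of these 8 genes. As the genes were picked by the call on the same values, this separation adds no support. Its share over all tested genes was not computed. The difference of S100A10 was small (adjusted p = 0.0457), and 8 of its 17 alternatives kept the call. For S100A4, 11 of 17 alternatives kept the call, which was lost with no filter and with DESeq2. With the offset for GC content the differences were 0.60, 0.40, 0.34, 0.58, 0.10, 0.13 and 0.55 for the first 7 genes in the same order and -0.72 for S100A4, and those of S100A13 and S100A14 were no longer called.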

How the results depend on the processing

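With 2 libraries per group, small changes were at the limit of the test. At Nut 10h, between 5 and 7 members were higher in every alternative without a fold threshold, and none was lower in any. Requiring in addition an absolute log2 fold change of at least 1 left 1 member higher at Nut 10h, 0 higher and 0 lower at Nut 1h, and 2 higher and 0 lower between Nut 10h and Nut 1h. Shares of all tested genes were not computed under this threshold, nor for the alternatives other than the GC-content offset. The counts in this section therefore show only how the calls moved with the setting, and not how they compare with all tested genes.

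The number of members higher at Nut 1h was 1 with RLE size factors, no filter, at least 10 counts in every library, only the 4 libraries compared, or DESeq2, and 4 with the GC-content offset, alone or with the replicate block. The number lower at Nut 1h was 2 with the offset, alone or with the replicate block. Leaving out single libraries gave between 1 and 2 higher and between 1 and 4 lower at Nut 1h. Between Nut 10h and Nut 1h, the 1 member lower became 0 with no filter or DESeq2, and leaving out single libraries gave between 0 and 1.

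The replicate numbers did not deviate together in all pairs of groups (correlations of -0.31 for Nut 0h and Nut 1h, 0.45 for Nut 0h and Nut 10h, and -0.28 for Nut 1h and Nut 10h), so they were not taken as a pairing. The replicate block gave 2 higher and 4 lower at Nut 1h, 6 higher at Nut 10h, and 6 higher and 1 lower between them. A crossed block, chosen after seeing the data as was the offset with the block, gave 2 and 5, 7 and 0, and 7 and 1.

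Changes of sign concerned the GC-content offset and values near 0. With the offset, S100A6 at Nut 1h was 0.42 (0.42 with the block), S100A1 0.59 (0.60) and S100A13 0.086 (0.084), S100A10 at Nut 10h was -0.015 (-0.015), and S100A1 between Nut 10h and Nut 1h was -0.67 (-0.67). S100A14 at Nut 1h was -0.0012 with RLE, -0.016 with no filter, -0.00090 with the minimum of 10 counts, -0.0060 with 4 libraries and -0.021 with DESeq2, and without single libraries it ranged from -0.071 to 0.11. S100A1 at Nut 10h was 0.0030 with upper quartile scaling. Without single libraries, S100A1 ranged from -0.32 to 0.10 at Nut 1h, from -0.23 to 0.18 at Nut 10h and from -0.037 to 0.26 between them. The cause was not tested.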
